A study of Mus musculus with 6 samples.

Results

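The cells described here are migratory dendritic cells of mouse dorsal skin, 148 of 34834 cells in 6 droplet single-cell RNA-seq libraries. A cell entered the group when it held at least 10 UMIs (unique molecular identifiers, one per captured transcript) of the class II antigen presentation genes H2-Aa, H2-Ab1, H2-Eb1 and Cd74, at least 2 UMIs over the 8 dendritic genes Cd209a, Flt3, Zbtb46, Xcr1, Clec9a, Ccr7, Fscn1 and Ccl22, no UMI of the Langerhans cell gene Cd207, and fewer than 5 UMIs over the 5 macrophage genes Pf4, C1qa, C1qb, C1qc and Mrc1. Cells were first filtered, requiring 500 or more UMIs, 300 or more genes and no more than 10% of UMIs from mitochondrial genes. These readouts chose the cells, so the levels of those genes are given as a description and carry no test.

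The skin came from male wild-type C57BL/6 mice. At each of 3 ages, 8, 26 and 52 weeks, there was 1 library of skin held ex vivo with PBMC-sec, the factors released by peripheral blood mononuclear cells after γ-irradiation, and 1 library of untreated skin that went to dissociation directly after collection. Each library pooled 3 animals. The untreated skin had no ex vivo period, so the secretome and the time in culture cannot be told apart. With 1 library in each of 6 groups, the fits with age and treatment leave 2 residual degrees of freedom per gene. The p-values of these fits also borrow spread from the other genes tested. They can therefore be far smaller than the 2 residual degrees of freedom alone would give. At 8 weeks the gate held 15 PBMC-sec cells and 38 untreated cells, at 26 weeks 11 PBMC-sec and 54 untreated cells, and at 52 weeks 16 PBMC-sec and 14 untreated cells.

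Dendritic cells sample antigen in peripheral tissue and present it to T cells on MHC class II. On maturation they acquire CCR7, the receptor for CCL19 and CCL21 that guides them into lymphatics, bundle actin with fascin (Fscn1), and secrete CCL22 and CCL17, ligands of CCR4 on T cells. Resident dermal dendritic cells are usually told by Cd209a in the cDC2 branch and by Xcr1 and Clec9a in the cDC1 branch, and both branches depend on the receptor Flt3. Mature migratory cells of either branch, and Langerhans cells that leave the epidermis, converge on the Ccr7 and Fscn1 programme.

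The label of dermal dendritic cells was not met by these cells. Cd209a, the C-type lectin of dermal cDC2, had a UMI in 3 of 148 cells, 2 of them in the 8-week PBMC-sec library and 1 in the 26-week untreated library. Xcr1 and Clec9a were at 0 in all 148 cells, which allows a share of up to 2.03% of cells with a UMI. By contrast 129 cells (87.2%) held Ccr7, 114 (77.0%) held Ccl22 and 107 (72.3%) held Fscn1, and 146 of 148 reached 2 UMIs over these 3 genes. Of the 148 cells, 81 held all of Ccr7, Fscn1 and Ccl22, 42 held a pair of them, 23 a single gene and 2 none. Flt3 was seen in 46 cells and the conventional dendritic cell factor Zbtb46 in 40. The gate is therefore described here as mature, Ccr7-bearing dendritic cells. Since Cd207 had to be 0, a Langerhans cell that had lost Cd207 transcripts on leaving the epidermis would meet the same rule.

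Ccr7 has its gene on chromosome 11 (99144196 to 99155077, minus strand, GRCm38), Fscn1 on chromosome 5 (142960343 to 142973185, plus strand) and Ccl22 on chromosome 8 (94745590 to 94751699, plus strand). Promoter windows from RefSeq (GRCm38.p6, 250 bases before to 50 after the start) were at hand for Fscn1 and Ccl22 and for Il4i1, a gene outside the rule that marked the same cells. They are shown because these genes were carried by the same cells. Capitals mark GGGNNNNNCC, a loose 10-base pattern of the NF-κB site, on either strand.
Fscn1, chr5:142960105-142960404, plus strand: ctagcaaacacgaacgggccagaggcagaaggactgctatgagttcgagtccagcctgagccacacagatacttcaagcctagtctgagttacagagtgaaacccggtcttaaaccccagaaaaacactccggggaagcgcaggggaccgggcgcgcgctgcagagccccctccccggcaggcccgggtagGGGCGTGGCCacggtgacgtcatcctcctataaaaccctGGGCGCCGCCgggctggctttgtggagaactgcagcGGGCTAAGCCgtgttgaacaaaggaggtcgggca
Ccl22, chr8:94745434-94745733, plus strand: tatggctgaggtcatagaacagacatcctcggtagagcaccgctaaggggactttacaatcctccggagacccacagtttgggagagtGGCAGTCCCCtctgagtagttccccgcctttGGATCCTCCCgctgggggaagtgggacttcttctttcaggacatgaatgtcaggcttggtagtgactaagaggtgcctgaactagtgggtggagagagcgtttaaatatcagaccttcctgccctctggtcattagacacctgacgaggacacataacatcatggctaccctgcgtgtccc
Il4i1, chr7:44836038-44836337, plus strand: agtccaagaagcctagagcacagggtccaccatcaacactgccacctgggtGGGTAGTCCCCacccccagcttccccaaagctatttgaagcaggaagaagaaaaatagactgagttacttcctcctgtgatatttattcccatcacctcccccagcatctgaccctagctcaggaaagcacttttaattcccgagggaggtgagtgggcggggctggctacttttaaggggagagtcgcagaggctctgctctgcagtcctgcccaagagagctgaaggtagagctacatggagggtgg
The Fscn1 window held 3 matches and the windows of Ccl22 and Il4i1 held 2 each, which overlap in Il4i1. Of all 32851 windows in the table, 50.8% held at least 1 match, so these letters do not set the windows apart.

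A few large cells in the gate looked unlike the rest. In 9 of the 148 cells the class II genes made up under 0.2% of all UMIs, although the cells passed the limit of 10 UMIs because they were deep, with 8569 to 32012 UMIs (median 20369, against 3008 in the other 139 cells). Of these 9, 8 held Fscn1, 1 held Ccr7 and 2 held Ccl22. Fscn1 also had a UMI in 24.3% of 12850 keratinocytes, where Ccr7 was seen in 0.233% and Ccl22 in 0.179%, so a UMI of Fscn1 alone does not tell a dendritic cell from a keratinocyte (median depth 3200.5 UMIs in the gate and 4784 in keratinocytes). The 9 cells held 45.0% of the gated UMIs in the 8-week PBMC-sec library and 0 in the 8-week untreated library. They held 32.2% and 15.6% in the PBMC-sec and untreated libraries at 26 weeks, and 29.7% and 67.2% at 52 weeks. Results are therefore given with all gated cells and without these 9 cells, a division chosen after seeing the data.

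**Figure D1:**
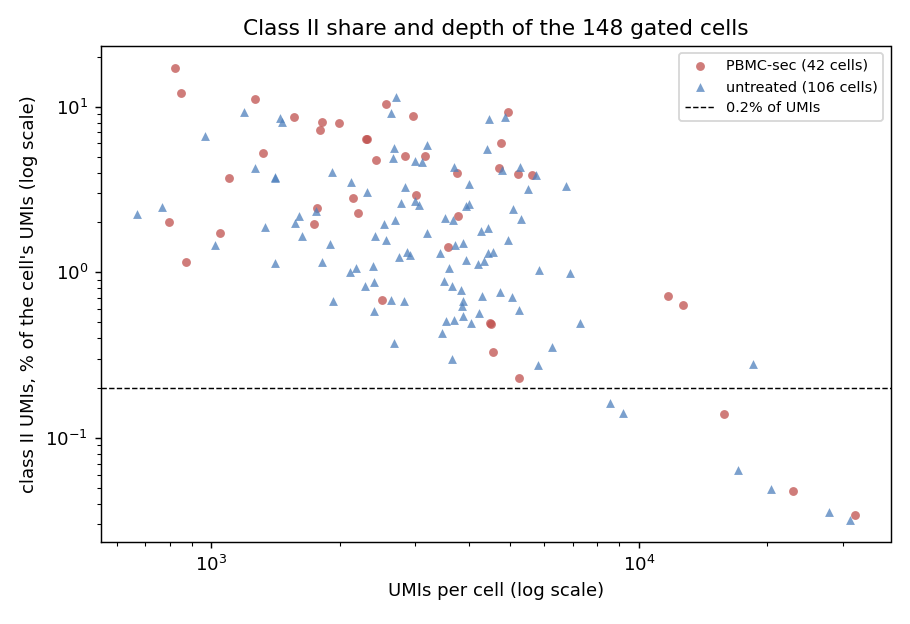
Class II UMIs as a percentage of each cell's UMIs (vertical, log scale) against UMIs per cell (horizontal, log scale) for the 42 PBMC-sec and 106 untreated cells in the gate. The dashed line at 0.2% has 9 cells below it, all with at least 8569 UMIs.

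Transcripts of other cell types were found in the 9 cells and, for keratinocyte genes, in others as well. The summed level of 14 fibroblast markers was 10148 CPM (UMIs of the summed cells scaled to a common total per library) in the 52-week untreated library and 169 to 684 CPM in the other 5 libraries, and without the 9 cells it was 145 to 684 CPM in all 6. All 15 keratinocyte markers had UMIs in the gate. Their sum was 21753 and 4842 CPM in the PBMC-sec and untreated libraries at 8 weeks, 26204 and 14375 CPM at 26 weeks, and 6909 and 9696 CPM at 52 weeks. Without the 9 cells these sums were 17702 and 4842 CPM at 8 weeks, 1681 and 8533 CPM at 26 weeks, and 664 and 2349 CPM at 52 weeks. Of the 291 Krt14 UMIs left in the 8-week PBMC-sec library without the 9 cells, 269 came from 1 cell. Among 12 Langerhans cell markers 9 had UMIs, with a sum of 833 to 2586 CPM against 5790 to 15118 CPM in cells gated on Cd207. Of 18 macrophage markers 12 had UMIs (448 to 1039 CPM, against 5062 to 12970 CPM in the macrophage gate). Of 12 B cell markers 4 had UMIs, at most 81.4 CPM. Their part in the results below was not tested beyond the values given with and without the 9 cells.

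Over the whole series, libraries held 3686 to 9237 cells after filtering, with median depths of 1128 to 4804 UMIs. In the 8-week untreated library 49.8% of cells lay in clusters of at least 10 barcodes whose profiles differed by little more than sampling noise, and 0 gated cells were among them. Of 34136 distinct barcodes 690 occurred in more than 1 library. Of the gated cells, 4 had such a barcode, and no barcode was gated in more than 1 library. Median depth in the gate was 1816 and 3977.5 UMIs at 8 weeks (PBMC-sec, untreated), 2296 and 2719.5 at 26 weeks, and 4117.5 and 4927.5 at 52 weeks. Comparison gates held 257 Langerhans cells (at least 2 Cd207 UMIs) and 801 macrophages.

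The gate was sharp at some of its edges and not at others. With exactly 2 UMIs over the 8 dendritic genes there were 9 cells inside, and 28 further cells had 1 such UMI and met the remaining conditions. With 10 to 12 class II UMIs there were 10 cells inside, and 18 with 7 to 9 outside. A single Cd207 UMI kept 11 otherwise eligible cells out, and 2 or more kept out 68. Between 1 and 4 UMIs of the macrophage genes were held by 18 of the 148 cells, and 4 further cells were left out by that condition.

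Migratory dendritic cells were a smaller share of PBMC-sec skin than of untreated skin at 26 weeks. At 52 weeks the shares did not differ beyond counting error, and at 8 weeks this depended on which cells were counted. At 8 weeks they made up 0.275% of cells in PBMC-sec skin (15 of 5459, exact 95% interval 0.154 to 0.453%) and 0.411% in untreated skin (38 of 9237, 0.291 to 0.564%). At 26 weeks the shares were 0.186% (11 of 5924, 0.0927 to 0.332%) and 0.968% (54 of 5579, 0.728 to 1.26%). At 52 weeks they were 0.323% (16 of 4949, 0.185 to 0.524%) and 0.380% (14 of 3686, 0.208 to 0.636%). The log2 ratio of PBMC-sec to untreated was -0.58 at 8 weeks (95% interval -1.55 to 0.31), -2.38 at 26 weeks (-3.47 to -1.43) and -0.23 at 52 weeks (-1.36 to 0.91). These intervals cover counting error only. At 26 weeks, cells kept out only by Cd207, with 1 UMI and with 2 or more, numbered 2 and 23 in PBMC-sec skin. In untreated skin they numbered 3 and 12, so the size of the 26-week difference depends on that condition. The mean log2 ratio was -1.07 ± 1.15 (SD, n = 3 ages, exact sign-flip permutation test, two-sided p = 0.25, the smallest that 3 pairs allow), with a lower share in 3 of 3 ages. When clusters of near-identical barcodes were left out of the totals, which removes 49.8% of the cells of the 8-week untreated library, the 8-week shares were 0.275% in PBMC-sec skin (15 of 5459, exact 95% interval 0.154 to 0.453%) and 0.819% in untreated skin (38 of 4638, 0.580 to 1.12%). The log2 ratio at 8 weeks was then -1.58, and the mean over ages was -1.41. A second count left out gated cells with transcripts of other types. These held at least 3 UMIs of lymphoid, mast cell or basophil markers, or over 5% keratinocyte and fibroblast marker UMIs. At 8 weeks this left 14 of 5459 cells in PBMC-sec skin and 25 of 9237 in untreated skin. The log2 ratios were then -0.08, -2.76 and 0.11, with a mean of -0.91 (exact sign-flip permutation p = 0.75). Without the 9 large cells the ratio at 52 weeks turned to 0.16 and the mean was -0.996 (n = 3 ages, exact sign-flip permutation p = 0.50). When cells were thinned to 1000 UMIs before gating, so that depth was equal, the log2 ratios were -1.17, -2.68 and 0.32. Cells with fewer than 1000 UMIs were dropped in that step, so the totals changed as well. At 8 weeks it left 4534 of 5459 cells in PBMC-sec skin and 5191 of 9237 in untreated skin. Shares depend on what else was recovered in a library, and fewer cells of a type and less RNA per cell cannot be told apart where a gate needs a minimum of UMIs.

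**Figure D2:**
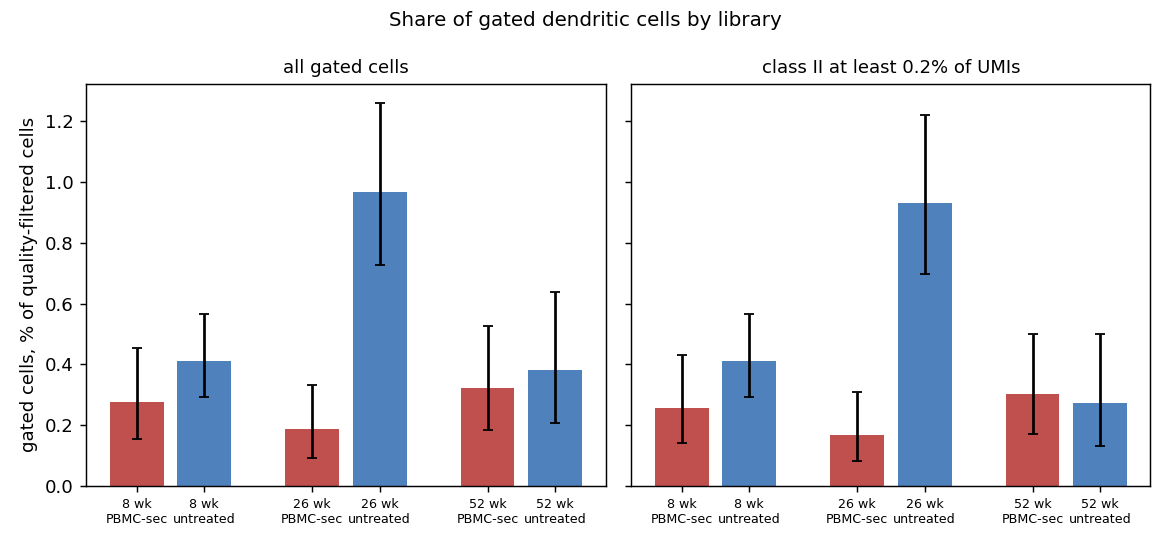
Gated dendritic cells as a percentage of all quality-filtered cells in each library (bars), with exact 95% binomial intervals (lines), for all gated cells (left) and without cells whose class II share is under 0.2% (right). The 26-week untreated library stands highest in both panels, at 0.968% and 0.932%.

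The share of gated cells with at least 2 UMIs of Ccr7, Fscn1 and Ccl22 was near its ceiling throughout. It was 14 of 15 cells (93.3%) in PBMC-sec skin and 38 of 38 (100.0%) in untreated skin at 8 weeks, 10 of 11 (90.9%) and 54 of 54 at 26 weeks, and 16 of 16 and 14 of 14 at 52 weeks. These 3 genes are among the 8 that admitted the cells, so the rule sets this ceiling and no test is given.

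Leading genes were ranked by the lowest ratio of gated cells to all other cells over the 6 libraries (10 CPM added to each, genes of the rule left out). They included genes of mature dendritic cells and genes shared by leukocytes. The other cells were of all types, so this ranking does not set the gate apart from other leukocytes. As the cells were chosen by readout, this is a description with no test. The highest was Samsn1, an adaptor that restrains lymphocyte signalling, at least 21.4-fold above the other cells in every library. Lsp1, an actin-binding protein of leukocytes, was at least 19.0-fold above them, and Il4i1, a secreted amino acid oxidase of mature dendritic cells, at least 18.0-fold. Myo1g (a leukocyte membrane myosin), Cytip (which uncouples integrin adhesion on maturation) and Apol7c (an apolipoprotein L of dendritic cells) followed at 13.7-fold, 13.2-fold and 12.9-fold. Next were Tbc1d4, Bcl2a1b, Tnfrsf9 (4-1BB), Bcl2a1d, Marcksl1 and Ccl5, at 10.7-fold to 12.4-fold. Bcl2a1b and Bcl2a1d belong to a family of near-identical copies, so their counts may be shared.

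Values across gates placed these genes apart from Langerhans cells in different degrees. Il4i1 averaged 570 CPM over the 6 libraries in the dendritic gate, 151 CPM in the Langerhans gate and 66.3 CPM in the macrophage gate. Ccr7 averaged 1727 CPM, against 251 and 102 CPM. Fscn1 averaged 1616 CPM, against 206 and 27.4 CPM, and Ccl22 averaged 2355 CPM, against 504.2 and 86.6 CPM. Of Langerhans gate cells 26.5% held Ccr7, so part of that gate carried the same programme. Ccl5, a chemokine for effector T cells, averaged 2300 CPM in the dendritic gate and 1376 CPM in the macrophage gate, and 1.93 CPM in the Langerhans gate. Socs2, a suppressor of cytokine signalling, averaged 280 CPM against 14.6 CPM in Langerhans cells and 7.82 CPM in macrophages. Tbc1d4 and Bcl2a1b did not separate the dendritic gate from the Langerhans gate as far, at 745 CPM against 759 CPM and 909 CPM against 649 CPM. Class II levels were lower than in the Langerhans gate, with Cd74, the invariant chain, at 9721 CPM on average against 20666 CPM. The macrophage gate also held Cd207, at 2003 CPM, so it was not free of Langerhans transcripts.

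**Figure D3:**
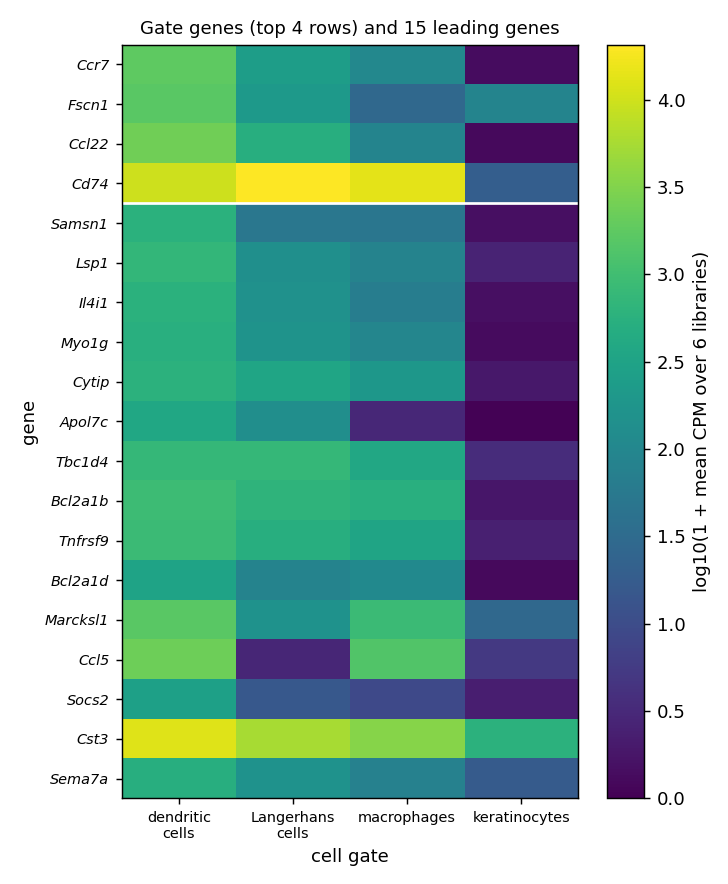
Mean level over 6 libraries, as log10 of 1 + CPM (colour), of Ccr7, Fscn1, Ccl22 and Cd74 (above the white line) and of 15 leading genes in the dendritic, Langerhans, macrophage and keratinocyte gates. The dendritic column is highest for Samsn1, Il4i1 and Socs2, while Tbc1d4 is about level with the Langerhans column.

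The gated cells varied among themselves in class II and in inflammatory transcripts. Leaving out the 9 large cells, class II made up a median of 2.01% of a cell's UMIs, and it was under 1% in 36 cells and at least 5% in 27 of 139. The 70 cells at or above 2% (a division set after seeing the data) held 3186 CPM of Il1b, the inflammatory cytokine interleukin-1β, and 7228 CPM of Cxcl2, a neutrophil chemokine. The 69 cells under 2% held 718 CPM of Il1b and 1352 CPM of Cxcl2. Il1b was seen in 72.9% of the first set and 47.8% of the second, although the first set was shallower (median 2696.5 against 3651 UMIs). Fscn1 ran the other way by cells, seen in 55.7% of cells at or above 2% and in 87.0% of those under it. Its levels were closer, at 2227 and 2582 CPM, and the part of the lower depth of the first set was not tested. Ccr7 was level, at 2862 and 2792 CPM, and Ccl22 was at 4081 and 2401 CPM. Over 139 cells the Spearman correlation of class II share was 0.40 with the Il1b share of UMIs (above 0 in 5 of 6 libraries), 0.35 with Cxcl2 (above 0 in 6 of 6), -0.30 with Fscn1 (below 0 in 4 of 6) and -0.04 with Ccr7. Cells of a library share its depth and free RNA, and shares of one total are tied to each other, so these values are descriptions.

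Class II is a value of the rule, so its spread over libraries is given as a description. Cells with class II under 2% of UMIs, the 9 large cells left out, numbered 4 of 14 in PBMC-sec skin and 21 of 38 in untreated skin at 8 weeks, 3 of 10 and 31 of 52 at 26 weeks, and 4 of 15 and 6 of 10 at 52 weeks. The gate asked for 10 class II UMIs, so a shallow cell had to have a larger class II share to enter, and the PBMC-sec cells had the lower median depth at every age.

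The treatment comparison asked what the ex vivo period with PBMC-sec changed in these cells at all ages. UMIs of gated cells were summed per library (49114 to 188802 UMIs) and fitted with edgeR's quasi-likelihood test with age and treatment as terms. With all gated cells, 0 of 1792 genes passed a Benjamini-Hochberg adjusted p of 0.05 (0.0% called), and 78 genes (4.35%) had an unadjusted p under 0.05, 39 in each direction. DESeq2 called 8 genes (0.446%), 7 higher and 1 lower. Without the 9 large cells edgeR called 3 of 865 genes (0.347%), all higher in PBMC-sec skin, and 10.3% of genes had an unadjusted p under 0.05. In a further fit cells were thinned to 1000 UMIs and those with fewer were dropped, which gives each remaining cell equal weight. In that fit the 26-week PBMC-sec library kept 9 cells, and edgeR called 9 of 290 genes (3.1%), 7 higher and 2 lower. The 7 include H2-Ab1 and H2-Eb1, which chose the cells, so those calls are a description only. The very small adjusted p-values in thinned cells rest on spread borrowed between genes, not on the 2 residual degrees of freedom alone.

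Fxyd2, the γ subunit that modulates the sodium-potassium pump, led the comparison. Its level was 1363 CPM in PBMC-sec skin and 40.6 CPM in untreated skin at 8 weeks, 916 and 31.8 CPM at 26 weeks, and 1400 and 15.9 CPM at 52 weeks. The PBMC-sec libraries stood above all untreated libraries with no overlap, as did 4.63% of all genes tested (6.71% without the 9 large cells, where Fxyd2 also had no overlap). UMIs of Fxyd2 were found in 7 of 15 PBMC-sec cells and 2 of 38 untreated cells at 8 weeks, 5 of 11 and 5 of 54 at 26 weeks, and 9 of 16 and 1 of 14 at 52 weeks. Keratinocytes had a UMI in 0.778% of cells. The log2 change was 5.41 ± 0.62 (SE) with all gated cells (edgeR adjusted p = 0.102), 5.57 ± 0.42 without the 9 large cells (adjusted p = 0.000227) and 6.14 ± 0.69 in thinned cells (adjusted p = 2.97e-15), higher in 3 of 3 ages. Over all 22 fits its log2 change was 4.97 to 6.24, and the edgeR or DESeq2 adjusted p was 2.91e-18 to 0.998 and under 0.05 in 14 of them. Macrophages showed the same gene at 948 and 58.9 CPM at 8 weeks, 361 and 102 CPM at 26 weeks, and 599 and 40.9 CPM at 52 weeks (PBMC-sec, untreated).

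Fxyd2 belongs to a list of 11 osmotic response genes, of which 10 passed the filter on low counts with all gated cells. The gene lists here and below were chosen with earlier results of these data known, so their counts are descriptions. Of these 0 were called, and 3 had an unadjusted p under 0.05, all higher in PBMC-sec skin (Fxyd2, Akr1b3 and Hspa4l), against 2.18% of all genes tested that were higher at that p. The median log2 change of the 10 was 0.27, against -0.01 over all genes tested. Akr1b3, aldose reductase, was at 309 and 6.77 CPM at 8 weeks, 4235 and 37.1 CPM at 26 weeks, and 156 and 63.5 CPM at 52 weeks (PBMC-sec, untreated). At 26 weeks 179 of the 208 PBMC-sec UMIs came from 1 cell. It passed the test without the 9 large cells (log2 change 6.99 ± 0.57, edgeR adjusted p = 0.000227) and not with them (4.61 ± 1.32, adjusted p = 0.876), and its level over all other cells was more than 5 times that of the gate in at least 1 library. The part of free RNA was not tested. Hspa4l, a heat shock protein of the Hsp110 class, was at 239 and 40.6 CPM at 8 weeks, 305 and 53.0 CPM at 26 weeks, and 104 and 31.7 CPM at 52 weeks (log2 change 2.38 ± 0.53, edgeR adjusted p = 0.667). Hamp, the gene of hepcidin, was the third call without the large cells (5.56 ± 0.72, edgeR adjusted p = 0.00807), but 88 of its 90 UMIs in the 52-week PBMC-sec library came from 1 cell.

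Genes of the type I interferon response were mostly at lower levels in PBMC-sec skin. Of 30 genes on the list 28 were in the matrices and 10 passed the filter. With all gated cells 0 were called, 9 of 10 had a log2 change below 0 and the median was -1.56, against -0.01 over all genes. At an unadjusted p under 0.05 there were 5, all lower, against 39 of 1792 genes (2.18%) that were lower at that p. Isg15, a ubiquitin-like interferon product, was at 590 and 2472 CPM at 8 weeks, 305 and 1817 CPM at 26 weeks, and 1322 and 1516 CPM at 52 weeks (PBMC-sec, untreated). The PBMC-sec libraries lay below all untreated libraries, at 52 weeks by little. The same held for 7.87% of all genes tested, and for 11.9% without the 9 large cells, where Isg15 also had no overlap. Its log2 change was -1.52 ± 0.61 (edgeR adjusted p = 0.998) with all cells and -1.40 ± 0.33 (adjusted p = 0.181) without the large cells. In thinned cells Isg15 fell by 1.29 on the log2 scale (± 0.39, edgeR adjusted p = 0.0311). Ifi27l2a, a small interferon-induced protein, was at 309 and 1192 CPM, 81.4 and 371 CPM, and 402 and 786 CPM in the same order (log2 change -1.59 ± 0.51, edgeR adjusted p = 0.912). Bst2, the antiviral tetherin, had 0 UMIs in the PBMC-sec gate at 8 and 26 weeks, against 47 and 42 UMIs in untreated cells. At 52 weeks it had 16 UMIs in PBMC-sec cells and 68 in untreated cells (log2 change -3.14 ± 1.0, edgeR adjusted p = 0.912), and other cells held more than 5 times the gate's level in at least 1 library.

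**Figure D4:**
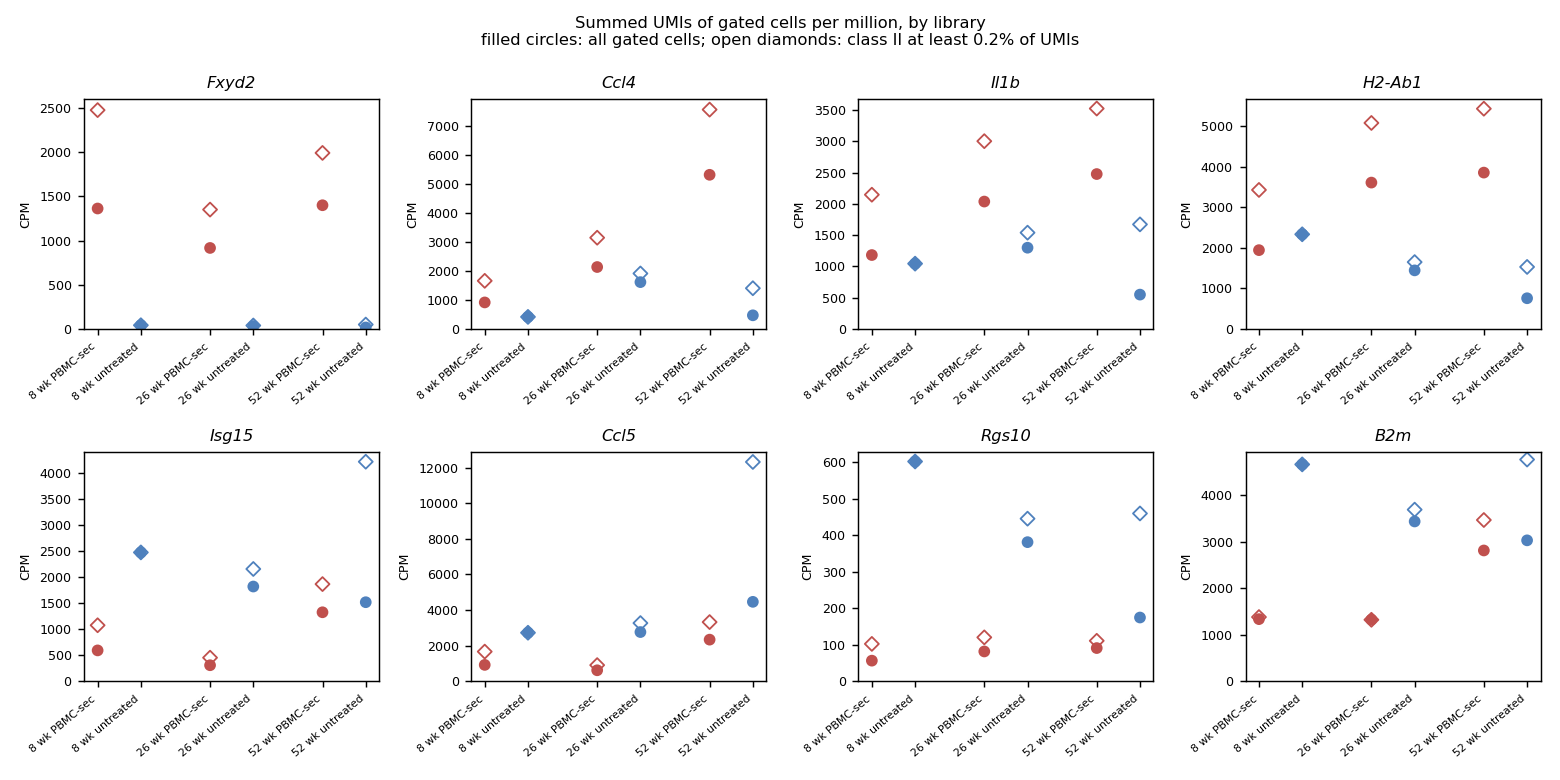
Level in CPM of 8 genes in each library, PBMC-sec in red and untreated in blue, for all gated cells (filled circles) and without the cells of low class II share (open diamonds). Fxyd2 is at 916 to 1400 CPM in PBMC-sec skin and 15.9 to 40.6 CPM in untreated skin with all gated cells, and Rgs10 is at 56.2 to 90.7 CPM and 175 to 603 CPM.

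Chemokines did not move as a group with treatment. Of 15 dendritic cell chemokines 10 passed the filter, 5 with a log2 change above 0 and 5 below (6 and 4 with the size factors of DESeq2), and 0 were called with all gated cells. Ccl22, a gene of the gate, is on this list, so its part in the counts is a description only. Ccl4, an inflammatory chemokine, was at 913 and 413 CPM at 8 weeks, 2138 and 1615 CPM at 26 weeks, and 5328 and 468 CPM at 52 weeks (PBMC-sec, untreated). It was higher in PBMC-sec skin in 3 of 3 ages, but few cells carried it, 3 of 15 and 4 of 38 at 8 weeks, 3 of 11 and 4 of 54 at 26 weeks, and 4 of 16 and 4 of 14 at 52 weeks. In PBMC-sec skin 1 cell held 35 of 65 Ccl4 UMIs at 8 weeks, 101 of 105 at 26 weeks and 213 of 411 at 52 weeks. In untreated skin 1 cell held 56 of 61, 140 of 305 and 37 of 59. The log2 change of Ccl4 was 1.73 ± 0.69 (edgeR adjusted p = 0.998) with all cells and 2.70 ± 0.42 in thinned cells (adjusted p = 2.98e-08). Ccl3, a close relative, showed a log2 change of 2.70 ± 0.92 (adjusted p = 0.931), and in thinned cells of 2.95 ± 0.68 (adjusted p = 0.00141). At 26 weeks 1 cell held 36 of its 53 UMIs in PBMC-sec skin, and 1 cell 50 of 71 in untreated skin. At 52 weeks 1 cell held 56 of 81 Ccl3 UMIs in PBMC-sec skin. Macrophages held Ccl4 at 3689 to 13059 CPM, and other cells held Ccl3 at more than 5 times the level of the gate in at least 1 library. Their part in this change was not tested. Ccl5 was at 913 and 2722 CPM at 8 weeks, 611 and 2760 CPM at 26 weeks, and 2333 and 4459 CPM at 52 weeks, lower in PBMC-sec skin in 3 of 3 ages. Its log2 change was -1.47 ± 0.49 with all cells (edgeR adjusted p = 0.912) and -1.47 ± 0.42 in thinned cells (adjusted p = 0.016).

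Maturation genes gave no calls with all gated cells. Of 36 genes on the list 28 passed the filter, 7 with a log2 change above 0 and 21 below (median -0.40, against -0.01 over all genes). In thinned cells 14 passed, 7 above and 7 below, with Ccl5 called. Cd86, the costimulatory ligand of CD28, was at 225 and 752 CPM at 8 weeks, 224 and 530 CPM at 26 weeks, and 376 and 151 CPM at 52 weeks (log2 change -0.51 ± 0.69, edgeR adjusted p = 0.998), so its direction differed between ages. Il4i1 showed a log2 change of 0.94 ± 0.72 (adjusted p = 0.998). Cd40, the receptor for T cell help, showed a log2 change of 0.54 ± 0.73 and Cd83, a maturation antigen, one of -0.12 ± 0.92 (both adjusted p = 0.998). Cst3, cystatin C, the most abundant of the leading genes in the gate, showed a log2 change of -0.29 ± 0.70 (adjusted p = 0.998).

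Class I presentation genes were mostly at lower levels in PBMC-sec skin, and class II presentation genes had no common direction. Of 16 class II presentation genes in the matrices 7 passed the filter, 4 with a log2 change above 0 and 3 below, and 0 were called. The 4 above 0 are the class II genes of the gate itself (H2-Aa, H2-Ab1, H2-Eb1 and Cd74), which are described only, and the 3 below are Ctss, Ifi30 and Lgmn. Without the 9 large cells H2-Ab1 was at 3423 and 2329 CPM at 8 weeks, 5073 and 1645 CPM at 26 weeks, and 5424 and 1526 CPM at 52 weeks (PBMC-sec, untreated). With all gated cells the groups overlapped for H2-Ab1, at 1939 and 2329 CPM at 8 weeks. Outside the gate, the lysosomal reductase Ifi30 had a log2 difference of -0.60 ± 0.59 and the endopeptidase Lgmn one of -1.03 ± 0.46 (both edgeR adjusted p = 0.998). Of 18 class I presentation genes 14 passed the filter, 3 with a log2 change above 0 and 11 below (median -0.44), and 0 were called. B2m, the light chain of class I, was at 1335 and 4666 CPM at 8 weeks, 1323 and 3437 CPM at 26 weeks, and 2813 and 3031 CPM at 52 weeks (log2 change -1.02 ± 0.53, edgeR adjusted p = 0.998). Psme2, a proteasome activator subunit, was at 450 and 1754 CPM, 509 and 1393 CPM, and 467 and 603 CPM in the same order (-1.18 ± 0.53, adjusted p = 0.998). B2m, Psme2 and the transporter Tap2 were the members with no overlap between groups, all lower, and 7.87% of all genes tested were lower in this sense. Without the large cells the 10 members tested were all below 0 (median -0.61), and 4 of them had no overlap, all lower, against 11.9% of genes.

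Other lists showed 0 calls in edgeR with all gated cells. Of 28 cytoskeleton and migration genes 20 passed, 2 above 0 and 18 below (median -0.43). Of 24 inflammatory cytokines and regulators 14 passed, 9 above and 5 below (median 0.20). Il1b was at 1180 and 1043 CPM at 8 weeks, 2036 and 1298 CPM at 26 weeks, and 2476 and 547 CPM at 52 weeks (log2 change 1.07 ± 0.56, edgeR adjusted p = 0.998), and in thinned cells it passed (1.29 ± 0.36, adjusted p = 0.0129). Of 23 NRF2 antioxidant genes 15 passed, 10 above and 5 below (median 0.52). Other genes with the smallest p were Rgs10, a regulator that shortens G protein signals (56.2 and 603 CPM, 81.4 and 381 CPM, and 90.7 and 175 CPM at 8, 26 and 52 weeks, PBMC-sec and untreated, log2 change -2.09 ± 0.62, adjusted p = 0.912), and the unnamed transcript CAAA01147332.1 (-1.51 ± 0.49, adjusted p = 0.912).

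Several of the smallest p-values came from the large cells. Col1a1, Sparc and Dcn, fibroblast matrix genes, had log2 changes of -10.26 ± 1.46, -5.19 ± 0.91 and -3.63 ± 0.98 (edgeR adjusted p = 0.423, 0.423 and 0.82). Col1a1 had 424 UMIs in the 52-week untreated gate, of which 297 came from 1 cell, and 1 UMI there without the 9 large cells. Sprr1b, a cornified envelope gene of keratinocytes, showed a log2 change of 4.86 ± 1.01 (adjusted p = 0.507), and 255 of its 260 UMIs in the 26-week PBMC-sec gate came from 1 cell. Gja1, a gap junction connexin, showed a log2 change of -2.03 ± 0.62 (adjusted p = 0.912) and had 0 UMIs in both 52-week libraries without the large cells. These genes were also more than 5 times as abundant in other cells in at least 1 library.

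The comparison of 52 with 8 weeks gave no calls in either set of cells. With all gated cells 0 of 1792 genes passed (0.0%), 32 had an unadjusted p under 0.05 (1.79%), and DESeq2 also called 0. Without the 9 large cells 0 of 865 passed (0.0%) and 71 had an unadjusted p under 0.05 (8.21%). With all gated cells 0.614% of genes were lower at that p. In thinned cells edgeR called 9 of 290 genes (3.1%), 6 higher at 52 weeks and 3 lower.

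Chemokine genes leaned to higher levels at 52 weeks. Of the 10 that passed the filter all had a log2 change above 0 (median 1.16, against -0.01 over all genes), and the same held without the large cells (median 1.61), with size factors from DESeq2's method, and for the 8 that passed in thinned cells. The list includes Ccl22, a gene of the gate, so its part in these counts is a description only. With all gated cells 3 had an unadjusted p under 0.05 and were higher (Cxcl1, Cxcl2 and Ccl17), against 21 of 1792 genes (1.17%). Cxcl2 was at 7713 CPM (PBMC-sec) and 5792 CPM (untreated) at 52 weeks, against 1574 and 772 CPM at 8 weeks, and at 26 weeks it was at 489 and 4306 CPM. Its log2 change was 2.49 ± 0.99 (edgeR adjusted p = 0.999) with all cells and 2.17 ± 0.51 in thinned cells (adjusted p = 0.00788). Ccl17, which shares the receptor CCR4 with Ccl22, was at 233 and 294 CPM at 52 weeks, against 56.2 and 81.3 CPM at 8 weeks (1.92 ± 0.67, adjusted p = 0.999). It was carried by 2 of 16 and 4 of 14 cells at 52 weeks, against 2 of 15 and 4 of 38 cells at 8 weeks. Ccl5 showed a log2 change of 1.07 ± 0.59 (adjusted p = 0.999) with all cells, and one of 1.70 ± 0.49 in thinned cells (adjusted p = 0.0287). Ccl4 showed a log2 change of 1.60 ± 0.83 (adjusted p = 0.999) with all cells, and one of 1.88 ± 0.52 in thinned cells (adjusted p = 0.0287).

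Inflammatory and interferon genes gave wide spreads. Il6, a cytokine of inflammation, was at 480 CPM (PBMC-sec) and 651 CPM (untreated) at 52 weeks, against 42.2 and 6.77 CPM at 8 weeks, with 20.4 and 68.9 CPM at 26 weeks (log2 change 4.73 ± 0.97, edgeR adjusted p = 0.999), and other cells held more than 5 times the level of the gate in at least 1 library. At 52 weeks 34 of its 37 UMIs in PBMC-sec cells and 43 of 82 in untreated cells came from 1 cell each. Ptgs2, cyclooxygenase-2, was at 1478 and 1809 CPM at 52 weeks, against 506 and 454 CPM at 8 weeks (1.84 ± 0.68, adjusted p = 0.999), and it passed in thinned cells (1.63 ± 0.48, adjusted p = 0.0287). It was carried by 10 of 16 and 9 of 14 cells at 52 weeks, and by 7 of 15 and 15 of 38 cells at 8 weeks. Rsad2, the antiviral protein viperin, was at 233 and 294 CPM at 52 weeks, against 14.1 and 88.0 CPM at 8 weeks. Its log2 change was 2.55 ± 0.74 with all cells (adjusted p = 0.999) and 3.30 ± 0.55 without the large cells (adjusted p = 0.085). Of the 10 interferon genes that passed, 9 had a log2 change above 0 (median 1.13), 1 of them at an unadjusted p under 0.05.

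**Figure D5:**
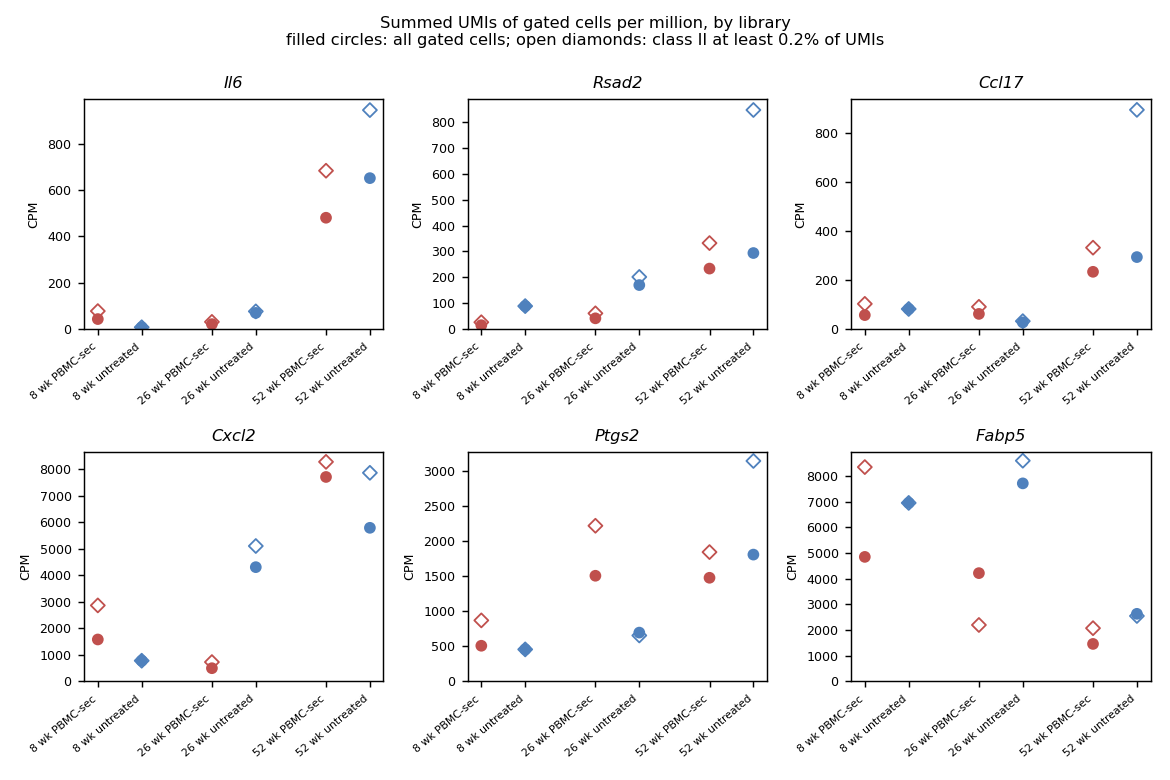
Level in CPM of 6 genes in each library by age, PBMC-sec in red and untreated in blue, for all gated cells (filled circles) and without the cells of low class II share (open diamonds). Ptgs2 is at 1478 and 1809 CPM at 52 weeks and at 506 and 454 CPM at 8 weeks, and Fabp5 is lower at 52 weeks than at 8 weeks.

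Genes at lower levels at 52 weeks included Fabp5, a fatty acid binding protein. It was at 1452 CPM (PBMC-sec) and 2626 CPM (untreated) at 52 weeks, against 4848 and 6954 CPM at 8 weeks, with 4215 and 7717 CPM at 26 weeks (log2 change -1.55 ± 0.58, edgeR adjusted p = 0.999). In thinned cells it fell by 1.67 on the log2 scale (± 0.52, adjusted p = 0.0462). Keratinocytes held Fabp5 at 6418 CPM on average, and the 12 keratinocyte markers that passed the filter had a median log2 change of -0.71 in the same comparison, 11 of them below 0. Serpinb1a, an inhibitor of neutrophil proteases, was at 12.96 and 79.3 CPM at 52 weeks, against 211 and 460 CPM at 8 weeks (-2.93 ± 0.70, adjusted p = 0.999). Its 52-week PBMC-sec value is 1 UMI, and 41 of its 68 UMIs in 8-week untreated cells came from 1 cell. Gyg, the glycogen primer glycogenin, was at 51.9 and 79.3 CPM, against 98.4 and 630 CPM (-2.13 ± 0.74, adjusted p = 0.999). Ctnna1, α-catenin, showed a log2 change of -1.62 ± 0.60 (adjusted p = 0.999). Ccr7 and Fscn1, as gate genes, were at 1711 and 563 CPM and at 1672 and 786 CPM at 52 weeks, against 871 and 3650 CPM and 1096 and 3217 CPM at 8 weeks, with no shared direction in the 2 treatments.

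Whether the dendritic gate answered PBMC-sec differently from macrophages and Langerhans cells was tested as a class by treatment interaction with the library as a block. Against macrophages 3 of 3968 genes differed (0.0756%), 1 higher in the dendritic change and 2 lower. The higher was Hamp, carried mainly by 1 cell (above). The lower were Tnc and Mmp3, both matrix genes, and Mmp3 was at -7.34 ± 0.90 (edgeR adjusted p = 0.0188). Mmp3, stromelysin-1, had 1, 1 and 0 UMIs in PBMC-sec cells at 8, 26 and 52 weeks and 59, 48 and 5 UMIs in untreated cells, of which 57 and 41 at 8 and 26 weeks came from 1 cell each. In macrophages it was at 103 and 56.4 CPM, 861 and 37.6 CPM, and 1217 and 150 CPM (PBMC-sec, untreated). Fxyd2 rose by a log2 of 3.42 ± 0.42 in macrophages (edgeR adjusted p = 0.00537), and the difference between the classes was 2.03 ± 0.71 (adjusted p = 1.0). Without the 9 large cells 30 of 3721 genes differed (0.806%), 13 higher and 17 lower, with Ccl4 at 2.04 ± 0.46 (adjusted p = 0.00191) and Ccl3 at 2.79 ± 0.54 (adjusted p = 6.62e-05) among the higher. Ccl4 and Ccl3 were carried by few cells in the dendritic gate (above). The 17 lower included the keratinocyte genes Crct1, Krtdap, Krt16, Sprr1a and Sprr1b, and the macrophage gate held keratinocyte markers at 3596 to 35859 CPM. Against Langerhans cells 1 of 3644 genes differed (0.0274%), Mmp3 again, at -6.14 ± 0.91 (edgeR adjusted p = 0.0428). Without the large cells 8 of 3408 differed (0.235%), 2 higher (Akr1b3, Gstp1) and 6 lower, among them the chemokines Ccl17 and Cxcl1. Of the 129 Gstp1 UMIs in the 26-week PBMC-sec gate 125 came from 1 cell. The interferon gene Isg15 differed by -0.43 ± 0.66 from macrophages and by -1.01 ± 0.75 from Langerhans cells (adjusted p = 1.0 and 0.958), so a difference in its treatment change was not shown.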

How the data were processed

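Skin was dissociated enzymatically and sequenced as droplet 3′ libraries, 1 per age and treatment, each from 3 pooled animals. The deposited counts are UMIs per gene and barcode, made by the authors with Cell Ranger 5.0.1, per the file headers, on mm10, per the submitters' processing notes. Barcodes with at least 500 UMIs, 300 genes and at most 10% mitochondrial UMIs were kept, and no doublet caller was run. UMIs of gated cells were summed per library and tested with edgeR 4.0.16 (quasi-likelihood, TMM, filterByExpr, age and treatment as terms, Benjamini-Hochberg threshold 0.05), with DESeq2 1.42.0 as an alternative (R 4.3.3). Single values over the 3 ages used an exact sign-flip permutation test. Levels are CPM of the summed cells, and 3 counts stand behind the limit given for a count of 0.

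Members and gene lists were chosen with earlier results of these data known. Genes were named where they passed the threshold with one direction throughout and a mean of at least 20 UMIs per library, or, with fewer than 10 of these, by the smallest p up to 10, plus up to 4 of the most abundant members of each list described. Other genes (Hspa4l, Tap2, Cd40, Cd83, Rsad2, Ccl17, Mmp3 and Tnc among them) were chosen after their values were seen. A gene picked by this naming rule is not reported here. A gene is called more abundant in other cells where its level there was over 5 times that of the gate. Each group is 1 pool, and nothing in the labels says whether treated and untreated skin shared animals. On simulated counts for the treatment comparison (1626 genes) edgeR recovered 51 of 92 genes changed by a log2 of 2. It recovered 85 of 89 changed by 4, with 5 false calls. The simulation gave all genes 1 dispersion (0.254), with no age effect and no single cell that dominates a sum. It therefore does not show what share of changed genes would be recovered in these data. Columns of per-sample values not used numbered 0. The length and dose of the PBMC-sec treatment are not given in the sources used here.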

Additional observations from a re-analysis of the deposited data

How the results depend on the processing

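Counts of called genes depended on the processing, and the cause was not tested. The treatment count in thinned cells includes H2-Ab1 and H2-Eb1, which chose the cells. For PBMC-sec against untreated, where edgeR called 0 with all gated cells, the count was 8 with DESeq2, 27 with no filter on low counts, 4 with a gate of 1 dendritic UMI, 2 without cells holding transcripts of other types, 9 with cells thinned to 1000 UMIs, 3 without cells of low class II share, 16 with both of these, and 1 with no age term. Leaving out 1 library or 1 age gave 0 to 77, with 41 without the 8-week PBMC-sec library, 16 and 14 without the 26-week PBMC-sec and untreated libraries, 77 and 15 without the 52-week PBMC-sec and untreated libraries, and 36 without the 52-week pair. For 52 against 8 weeks the count of 0 became 16 with no filter, 9 with thinned cells and 10 with thinned cells without low class II share, and leaving out libraries gave 0 to 53 (53 without 52-week PBMC-sec, 26 without 8-week PBMC-sec, 14 without 26-week PBMC-sec, 11 without 26-week untreated). The difference from macrophages, 3 genes, became 18 with no filter, 6 with thinned cells and 30 without low class II cells, and 0 to 22 with an age left out (5 without the 26-week pair, 0 without the 52-week pair). The difference from Langerhans cells, 1 gene, became 9 with no filter, 0 with thinned cells, 4 with a gate of 3 dendritic UMIs and 8 without low class II cells, and 1 to 19 with an age left out. With a library left out, the lone sample of its age is assumed to vary like the others. The mean log2 ratio of the cell share was -1.48 to -0.41 with an age left out, and stayed below 0 under every setting run. The 10 genes of smallest p in each of both comparisons, all gated cells, kept their direction in the alternative fits that tested them, 284 on the same side of the threshold and 58 newly past it. Not every fit tested them. For treatment, Col1a1 was in 14 fits and Dcn and Sparc in 15 each, against 22 for Fxyd2. Without the 9 large cells 0 of 14 fibroblast markers passed the filter, so the direction of these 3 genes was not tested there. Other named genes did not, as for 52 against 8 weeks Akr1b3 (log2 change -2.58 to 4.05) and Krt14 (-6.04 to 2.88). No paired analysis was possible because the replicate numbers are all 1, beyond the pairing by age that the fits and sign-flip tests already hold. The few cells per library, 11 to 54 with all gated cells, limit every comparison. By plan a library with fewer than 10 gated cells was to be left out of a fit, but such libraries were kept. The thinned fits held 9 cells of the 26-week PBMC-sec library. Without cells holding transcripts of other types, 8 cells were left in 26-week PBMC-sec skin and 9 in 52-week untreated skin.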
